A study of Mus musculus with 16 samples.

Results

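The respiratory chain genes described here are 107 of the 13474 genes measured in cultured mouse T-cell leukaemia lines. They were taken by name and are encoded by both genomes of the cell. The members are every row named mt-, which gave 13 mitochondrial mRNAs and 2 mitochondrial rRNAs, and 92 nuclear protein-coding genes. The nuclear genes are those named Nduf, Uqcr, Atp5, Cox4, Cox5, Cox6, Cox7 or Cox8 and the genes Sdha, Sdhb, Sdhc, Sdhd, Cycs and Cyc1. By role the nuclear members are 37 subunits of complex I, 8 complex I assembly factors, 4 subunits of complex II, 9 of complex III, 15 of complex IV and 17 of complex V, with Cycs (cytochrome c) and Cox7a2l (a factor that joins complexes III and IV) making up the rest. The rule reads only names and gene biotype. It also takes in the rows Ndufb1-ps and Cox5b-ps, counted here under complexes I and IV, and Cox5b-ps may share reads with Cox5b. RNA was sequenced from 16 cultures of 5 lines, each culture being 1 library, and the series is centred on resistance to cytarabine. Lines 2883, 2696, 2641 and 2869 have the genotype Mcm2cre/cre, described by the submitters as an Mcm2 hypomorph, and line 7298 has the genotype SCL/LMO1 transgenic. All came from thymus, grew in DMEM with fetal bovine serum and carry the same batch date. The 5 parental cultures, 1 per line, were labelled as treated with PBS, and the 11 resistant derivatives were labelled with a drug. These were cytarabine (lines 2883, 2869 and 7298), vincristine (2883, 2696 and 2869), etoposide (2883 and 2696), prednisone (2883 and 2641) and methotrexate (2883). Each derivative was set against the parental library of its own line, so line 2883 enters every drug comparison with the same parental library, and the comparisons are not independent. Nothing in the labels says that a culture was grown again, so p-values measure only the spread between these libraries after the model terms.

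The respiratory chain sits in the inner mitochondrial membrane. Complexes I and II take electrons from NADH and succinate, complex III passes them to cytochrome c, complex IV hands them to oxygen, and complex V (ATP synthase) makes ATP from the proton gradient that complexes I, III and IV build. The mitochondrial genome encodes core subunits of complexes I, III, IV and V, its genes being transcribed as long precursors that are cut at the tRNAs between them, while complex II, cytochrome c and all other subunits are nuclear genes. Dividing T cells and T-cell leukaemias use the chain for ATP and for the aspartate needed to make nucleotides.

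Depth, read from the steps between low values, ran from 12142000 to 13498000 reads for parental cultures and from 14066000 to 18956000 reads for resistant ones, so depth and resistance cannot be told apart. Of 16 T-cell markers, 16 reached 1 FPKM in at least 1 library. Cd4 and Cd5, however, had medians of 0.037 and 0.102 FPKM over the 16 libraries. Cd2, Cd8a and Cd247 fell to 0.106, 0.47 and 0.967 FPKM in their lowest library. The summed level of all 16 markers was 5567 to 8748 CPM (reads scaled to the library total) in the parental and 5094 to 9030 CPM in the resistant libraries. Few markers of other cell types have a row here. They were 1 of 5 for B cells (0.00528 to 13.2 CPM), 2 of 6 for myeloid cells (3.85 to 34.3), 0 of 3 for erythroid cells and 2 of 8 for thymic stroma (27.0 to 154 in parental and 27.4 to 220 in resistant libraries). The part of these markers in the results below was not tested.

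Mitochondrial mRNAs were far above nuclear members of the same complexes. Because the deposited FPKM divide by the whole gene span, introns included, levels of different genes were compared as CPM per kilobase of annotated exon, as medians over the 16 libraries. The exon length joins all annotated exons of a gene, so it can exceed that of its mRNA and lower the level. For Ndufb7 it is 4522 bases of a 4956-base span, whereas for mitochondrial genes it equals the span. How far this lowers nuclear levels, and their order, was not tested. On this scale the 13 mitochondrial mRNAs had a median of 2505 and the 88 nuclear members with an exon length had a median of 39.7, a ratio of 63.0. The lowest mitochondrial mRNA, mt-Nd3 (complex I), stood at 632, and 0 nuclear members reached it. The highest was mt-Co1, the catalytic subunit of complex IV, at 7920 (lowest library 6085, highest 10380), and it gave 25.6% to 44.8% of all mitochondrial mRNA reads. Next came mt-Nd1 (4012), mt-Co2 (3462), mt-Cytb (3315, the complex III cytochrome b), mt-Atp6 (3174), mt-Co3 (2990) and mt-Atp8 (2505), and then mt-Nd4 (2051), mt-Nd2 (1881), mt-Nd5 (1347), mt-Nd6 (960) and mt-Nd4l (634). Ranges over the libraries overlapped even for the first pair in this order, since mt-Nd1 reached 7197 in vincristine 2883. Among nuclear members the order on the same scale was led by Atp5b (352) and Atp5a1 (328), the catalytic-head subunits of complex V, followed by the complex IV subunits Cox8a (246), Cox6a1 (216), Cox4i1 (159) and Cox6b1 (153). By complex, the medians over members were 39.1 for complex I, 59.8 for complex II, 70.5 for complex III, 74.1 for complex IV and 50.4 for complex V. The electron carriers themselves stood at 20.7 (Cycs) and 58.4 (Cyc1, cytochrome c1 of complex III).

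The 13 mitochondrial mRNAs together took 3.03% to 3.76% of the parental reads and 2.22% to 5.26% of the resistant reads, the lowest being the cytarabine-resistant derivative of 7298 and the highest the vincristine-resistant derivative of 2883. This share was above that of the own parental library in 7 of 11 derivatives. The 92 nuclear members together took 0.972% to 1.18% of the parental reads and 0.845% to 1.16% of the resistant reads, and were below their own parental library in 11 of 11 derivatives. In line 2883 the parental share was 1.17%, and the derivatives had 0.882% (cytarabine), 0.906% (prednisone), 0.988% (etoposide), 1.01% (methotrexate) and 1.16% (vincristine). In line 7298 the share went from 1.06% to 1.04%, and in line 2641 from 1.18% to 1.16%. Mitochondrial mRNA reads were 2.80 to 3.32 times the nuclear reads in parental and 2.14 to 4.56 times in resistant libraries, with the ratio above the own parental library in 9 of 11 derivatives. In bulk RNA, fewer cells that express a gene and less of its RNA per cell cannot be told apart. Libraries were made from poly(A) RNA, and a share of reads is relative to all other transcripts. The total includes the mitochondrial reads, so a higher mitochondrial share by itself lowers the nuclear share. In vincristine 2883, mRNA and rRNA together went from 3.86% to 5.53%, while 47 of 85 nuclear members were above the parental library. Leaving the mitochondrial rows out scales its values up by 1.058 and those of parental 2883 by 1.040. The count of 11 was not repeated on that scale or for other gene sets.

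**Figure D1:**
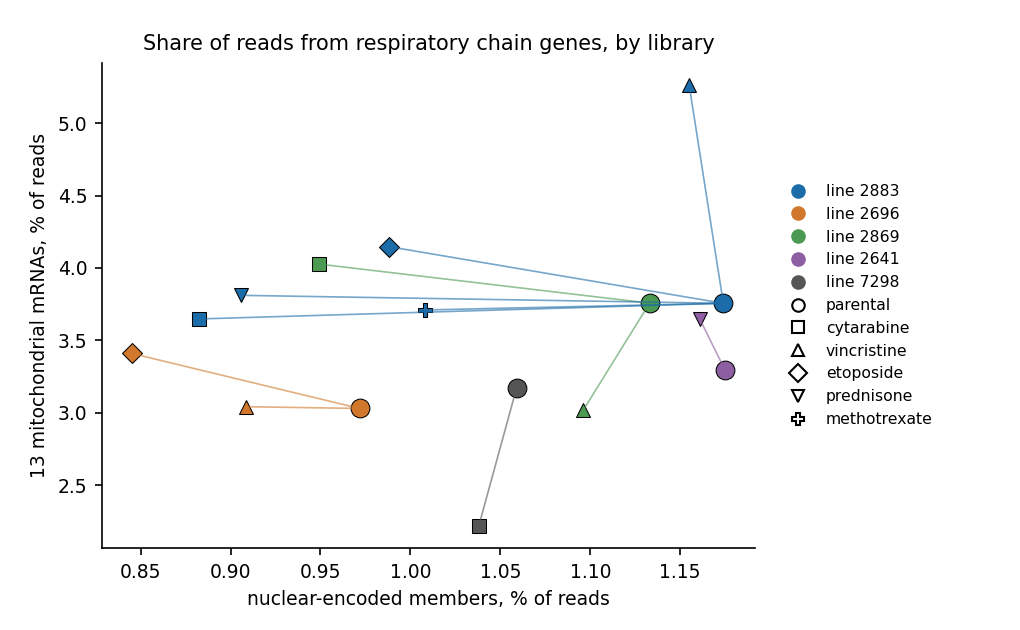
Share of all reads (percent, linear axes) taken by the 13 mitochondrial mRNAs and by the 92 nuclear members, with 1 point per library, coloured by line, shaped by drug and joined to the parental point of the same line. Each of the 11 derivatives lies left of its own parental point (a lower nuclear share of all reads, mitochondrial reads included), and 7 of 11 lie above it.

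Differences were tested with limma on log2(FPKM + 1) over the 9309 genes that reached 1 FPKM in 2 or more libraries. Of the 107 members, 101 passed that filter, all 15 mitochondrial and 86 of 92 nuclear ones. The nuclear members below it were the complex I subunit Ndufs4, the assembly factors Ndufaf2, Ndufaf5 and Ndufaf6, the complex IV isoform Cox4i2 and the complex V subunit Atp5g2. No member passed an adjusted p of 0.05 (Benjamini-Hochberg over all 9309 genes) in any comparison, and the smallest limma adjusted p of a member was 0.404 for cytarabine, 0.271 for vincristine, 0.532 for etoposide, 0.489 for prednisone and 0.436 for all 11 derivatives together. Counts at an unadjusted p under 0.05 are therefore given as a description, beside the percentage of all 9309 genes on the same side.

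Nuclear members lay below their own parental library in a larger share of cases than all tested genes in 10 of the 11 derivatives. Genes with 0 reads in both libraries, such as Uqcr11 in lines 2883 and 2869, were left out of each of these counts. In line 2883, 74 of 85 nuclear members (87.1%) were below for cytarabine, where 49.1% of all genes with a read were below, as were 78 of 85 (91.8%) for prednisone against 47.6%, 70 of 85 (82.4%) for methotrexate against 60% and 59 of 85 (69.4%) for etoposide against 53.5%. The vincristine-resistant derivative of this line went the other way, with 38 of 85 (44.7%) below against 51.1%. In the remaining lines the cytarabine-resistant derivative of 2869 had 76 of 85 (89.4%) below against 46% of all genes, and that of 7298 had 51 of 85 (60.0%) against 49.8%. Vincristine gave 58 of 85 (68.2%) below in both 2696 and 2869, against 49.6% and 55.5% of all genes. Etoposide in 2696 gave 74 of 86 (86.05%) against 51.9%, and prednisone in 2641 gave 59 of 86 (68.6%) against 52.3%. Median log2 differences of these nuclear members ran from -0.39 (prednisone 2883) and -0.38 (cytarabine 2883) to 0.02 (vincristine 2883). Members of the chain share their complexes and are not replicates of a condition, so these counts carry no p-value.

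**Figure D2:**
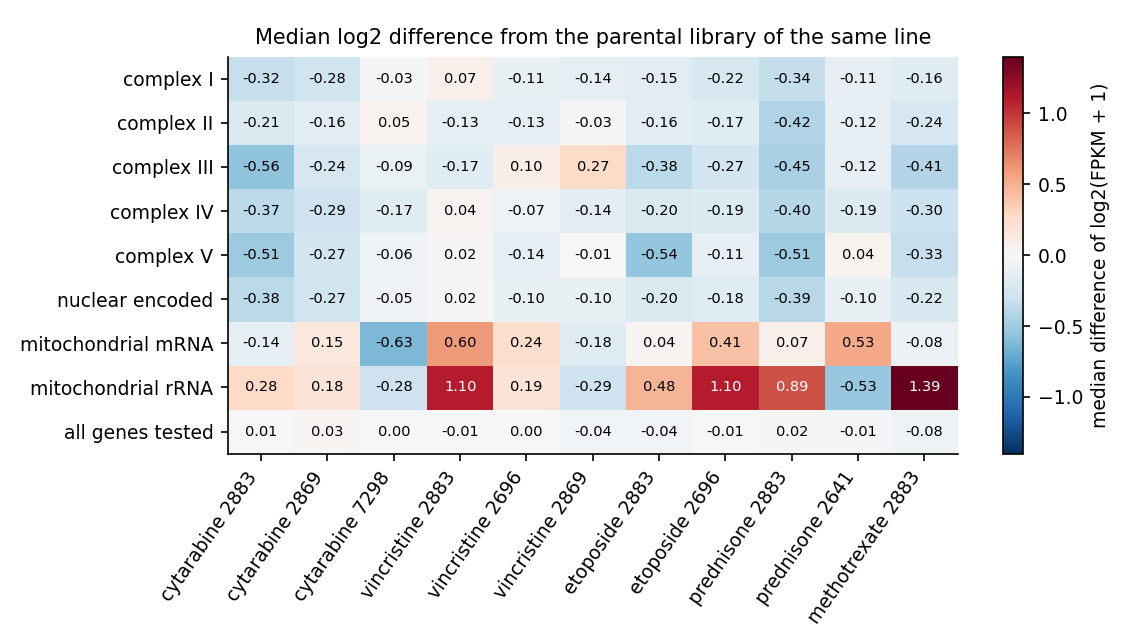
Median difference of log2(FPKM + 1) between each derivative (columns) and the parental library of its line, for the nuclear members by complex and together, the mitochondrial mRNAs and rRNAs and all tested genes (rows), with blue for lower and red for higher. The row of nuclear members is below 0 except at 0.02 for vincristine 2883, while mitochondrial mRNA medians spread from -0.63 to 0.60.

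Nuclear chain genes are short, and transcript length moved with the differences in most derivatives. Their median exon length was 1578 bases against 4337 for other protein-coding genes. Other protein-coding genes with exons under 1500 bases had a lower median difference than those of at least 5000 bases in 9 of 11 derivatives. In cytarabine 2883 these medians were -0.17 and 0.07, in prednisone 2883 -0.15 and 0.09, and in cytarabine 2869 -0.15 and 0.11. The exceptions were methotrexate 2883 (-0.026 and -0.11) and vincristine 2883 (0.049 and -0.021). Nuclear members under 1500 bases had medians from -0.49 (prednisone 2883) to 0.063 (vincristine 2883), and the 23 nuclear members of at least 2500 bases from -0.44 (cytarabine 2883) to 0.014 (cytarabine 7298). The part of transcript length or RNA quality in the members' differences was not tested.

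No member passed the adjusted threshold in the cytarabine-resistant derivatives. Of 101 members, 17 were lower and 0 higher at an unadjusted limma p under 0.05, all 17 nuclear and each lower in 3 of 3 derivatives. Over all genes 5.22% were lower and 5.92% higher at that p, and 0% passed the adjusted threshold. The nuclear median was -0.22, with 78 of 86 below 0, where all tested genes had a median of 0.02 and 47.4% below 0. By complex, 34 of 36 complex I members were below 0 (7 of them at the unadjusted p), as were 2 of 4 of complex II (0), 9 of 9 of complex III (2, and with Uqcr11 resting on line 7298 alone), 12 of 14 of complex IV (5), 16 of 16 of complex V (3) and 3 of 5 assembly factors.

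Cox7a2, a small accessory subunit of complex IV (chr9:79755361-79759878), was at 28.7, 25.0 and 20.1 FPKM in the parental libraries of 2883, 2869 and 7298 and at 15.4, 14.5 and 16.1 FPKM in their cytarabine-resistant derivatives. The 3 resistant values lay below all 5 parental values, of which those of 2696 and 2641 were 18.4 and 29.9 FPKM. The log2 difference was -0.60 ± 0.15 (SE, limma adjusted p = 0.404). Cox7b, a further small complex IV subunit (chrX:106015700-106022450), went from 29.5 to 16.2 FPKM in 2883, from 32.5 to 19.2 in 2869 and from 26.6 to 20.3 in 7298. Its resistant values again did not overlap the parental ones (24.1 to 32.5 FPKM), at -0.61 ± 0.15 (SE, limma adjusted p = 0.404). Cox7a2 and Cox7b were picked by the smallest p in these same values, and the share of all genes without such overlap was not computed. Ndufb5, an accessory subunit of the membrane arm of complex I (chr3:32736990-32751566), went from 6.08 to 3.74 FPKM in 2883, from 6.79 to 5.37 in 2869 and from 5.09 to 3.81 in 7298, a difference of -0.38 ± 0.12 (SE, limma adjusted p = 0.404). Here the resistant 2869 value lay within the parental range of 4.76 to 6.79 FPKM. Cox6c of complex IV went from 13.4, 13.5 and 11.9 FPKM to 8.51, 10.3 and 9.14 FPKM (-0.40 ± 0.13), and Ndufa6 of complex I from 14.0, 18.3 and 17.8 FPKM to 12.0, 11.1 and 14.2 FPKM (-0.46 ± 0.15), both at a limma adjusted p of 0.404. Every other member of the 17 was lower by 0.29 to 0.77 on the log2 scale, the extremes being Ndufa7 (complex I, -0.29) and Uqcrb (complex III, -0.77). The 17 depended on single libraries. Leaving out cytarabine 2883 gave 5, parental 2869 gave 8, cytarabine 2869 gave 10, and leaving out either or both libraries of line 7298 gave 29.

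**Figure D3:**
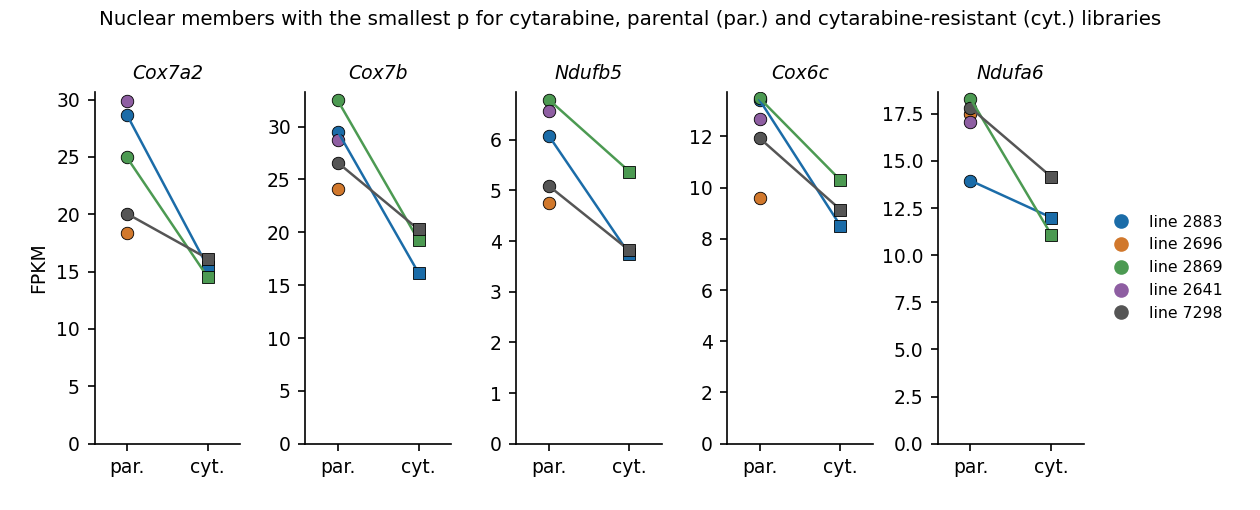
FPKM of Cox7a2, Cox7b, Ndufb5, Cox6c and Ndufa6 in the parental and cytarabine-resistant libraries of lines 2883, 2869 and 7298, with a line joining each derivative to its own parental library. All 15 pairs slope downwards, Cox7b from 29.5 to 16.2 FPKM in line 2883.

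The sequence before the start of the 3 members with the smallest p is shown because these genes had lower values together. RefSeq promoter windows (GRCm38.p6, 250 bases before to 50 bases after the start) matched 75 of the 92 nuclear members by symbol. The search, on both strands, was for a core recognised by nuclear respiratory factor 1 (NRF1), spelled GCGC, then any base, then TGCGC, and for CCGGAAG, a core recognised by ETS factors such as GABP. Neither motif is contained in the other. Each matched 19 of 75 members (25.3%), where NRF1 matched 5.19% and ETS 9.93% of the 27025 genes with a window. Member windows held a median of 20 CpG against 7 over all windows. Neither core occurs in the parts before the gene printed here, 5′ to 3′ on the gene's strand, where capitals would mark a match.
Cox7b, chrX:106015550-106015699 (plus strand): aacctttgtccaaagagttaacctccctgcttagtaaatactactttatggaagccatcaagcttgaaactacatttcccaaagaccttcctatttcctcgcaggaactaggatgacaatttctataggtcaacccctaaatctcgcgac
Cox7a2, chr9:79759879-79760003 (minus strand): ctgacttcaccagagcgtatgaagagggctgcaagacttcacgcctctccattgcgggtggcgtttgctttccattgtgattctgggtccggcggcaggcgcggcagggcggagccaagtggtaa
Ndufb5, chr3:32736913-32736989 (plus strand): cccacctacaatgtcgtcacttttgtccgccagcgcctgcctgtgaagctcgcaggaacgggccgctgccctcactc
In cytarabine-resistant derivatives the 17 tested members with an NRF1 match had a median log2 difference of -0.16 (15 of 17 below 0) and the 54 without one -0.26 (49 of 54), while members with and without an ETS match had -0.23 (17 of 19) and -0.24 (47 of 52). A match is a description of letters, not of binding.

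Prednisone-resistant derivatives of 2883 and 2641 likewise had no member past the adjusted threshold. At an unadjusted limma p under 0.05, 17 members were lower and 0 higher, and 16 of the 17 were lower in 2 of 2 derivatives. Over all genes 4.74% were lower and 4.43% higher at that p, and 0.0215% (2 genes, neither a member) passed the adjusted threshold. The nuclear median was -0.22, with 72 of 86 below 0, against 0.00 and 49.7% for all genes. Complex I had 33 of 36 members below 0 (8 at the unadjusted p), complex II 4 of 4 (2), complex III 7 of 9 (1), complex IV 13 of 14 (3) and complex V 11 of 16 (3). Ndufa6 went from 14.0 to 9.85 FPKM in 2883 and from 17.1 to 11.3 in 2641 (-0.61 ± 0.18), and Cox7a2 from 28.7 to 15.3 and from 29.9 to 22.7 (-0.57 ± 0.17). Ndufb2, of the complex I membrane arm, went from 3.34 to 1.68 FPKM in 2883 and from 2.92 to 2.19 in 2641 (-0.46 ± 0.14). Ndufb3 (-0.51 ± 0.16) and Ndufb11 (-0.56 ± 0.18), from the same arm, were also lower in both, and these 5 genes share a limma adjusted p of 0.489. The larger difference was in 2883 for Cox7a2, Ndufb2, Ndufb3 and Ndufb11, and in 2641 for Ndufa6. Ndufb11 went from 44.7 to 28.1 FPKM in 2883 and from 54.3 to 40.8 in 2641. Without the prednisone-resistant library of 2883 the count of 17 became 0 and the nuclear median -0.10, and without the parental library of 2696 the count was 11.

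Etoposide-resistant derivatives of 2883 and 2696 had 5 lower and 0 higher members at an unadjusted limma p under 0.05, each lower in 2 of 2, where 5.3% of all genes were lower and 3.59% higher and 0% passed the adjusted threshold. The members' share is thus close to that of all genes. The nuclear median was -0.14, with 65 of 86 below 0, against -0.03 and 54.3% for all genes. Complex V stood lowest in 2883, with a median of -0.54 over its 16 tested members, beside -0.11 in 2696. Atp5b, the catalytic beta subunit of complex V (chr10:128083273-128090391), was at 243.9 FPKM in parental 2883 and 104.8 in its etoposide-resistant derivative, a ratio of 0.430 (95% exact binomial interval 0.420 to 0.440, counting error only). In 2696 it went from 186.1 to 167.1 FPKM, and the difference over both lines was -0.61 ± 0.23 (SE, limma adjusted p = 0.532). In the other derivatives of 2883 Atp5b was at 188 (cytarabine), 222 (vincristine), 194.5 (prednisone) and 195.6 FPKM (methotrexate), so the etoposide library is the lowest of 16. The 62 other tested genes within 5 megabases of Atp5b had a median of -0.41 in that derivative, beside -1.21 for Atp5b. The other 4 were Atp5md of complex V (-0.46 ± 0.19, limma adjusted p = 0.545), Cycs (-0.48 ± 0.19, 0.545), Uqcr10 of complex III (-0.39 ± 0.17, 0.555) and Uqcrfs1 (-0.63 ± 0.28, 0.557). The count of 5 became 0 without the etoposide 2883 or the parental 2883 library, 2 without the parental 2869, cytarabine 2869 or vincristine 2869 library, 3 without the parental 2696 or vincristine 2696 library, and 8 without the etoposide 2696 library.

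Vincristine-resistant derivatives of 2883, 2696 and 2869 had 5 higher and 2 lower members at an unadjusted limma p under 0.05, where 5.94% of all genes were higher and 7.91% lower and 0% passed the adjusted threshold. The members' shares, 4.95% higher and 1.98% lower, are both below those of all genes. The nuclear median was -0.01, with 44 of 86 below 0, against -0.02 and 52.7% for all genes. Higher in 3 of 3 derivatives were Ndufa10, a complex I subunit (0.30 ± 0.10, limma adjusted p = 0.271), mt-Rnr2 (0.89 ± 0.35, 0.310), the complex III subunit Uqcrq (0.32 ± 0.13, 0.337) and the complex I subunit Ndufb9 (0.36 ± 0.15, 0.346). Atp5g1, a copy of the complex V c-ring gene, was the fifth and was higher in 2 of 3. Uqcrq went from 45.8 to 51.4 FPKM in 2883, from 44.4 to 60.0 in 2696 and from 47.1 to 58.9 in 2869. Lower in 3 of 3 were Cox4i1 (-0.41 ± 0.16, limma adjusted p = 0.305) and Ndufab1 (-0.29 ± 0.12, 0.318), the mitochondrial acyl carrier protein that is also a complex I subunit. Cox4i1, the common isoform of the complex IV regulatory subunit, went from 46.5 to 26.4 FPKM in 2883, from 41.0 to 34.9 in 2696 and from 42.4 to 37.6 in 2869. The count of 5 higher was 1 without parental 2869, 2 without parental 2696 or vincristine 2696, and 3 without parental 2641, cytarabine 2869, prednisone 2883 or prednisone 2641. The count of 2 lower was 6 without vincristine 2883, 4 without either library of 7298, and 1 without parental 2883, parental 2869 or vincristine 2869.

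With the 11 derivatives in a single term, 17 members were lower and 0 higher at an unadjusted limma p under 0.05, where 5.94% of all genes were lower and 3.8% higher and 0% passed the adjusted threshold. Line 2883 gives 5 of these 11 derivatives. The nuclear median was -0.15, with 77 of 86 below 0, against 0.00 and 51.0% for all genes, and by complex 32 of 36 (I), 4 of 4 (II), 7 of 9 (III), 13 of 14 (IV) and 15 of 16 (V) were below 0. Of these 17, Cox7b, Ndufb5, Ndufb2 and Uqcrfs1 were lower in 11 of 11 derivatives. Ndufv2 and Ndufb4, which are not among the 17, were also lower in 11 of 11. The share of all tested genes lower in 11 of 11 was not computed. Cox7b had the smallest p (-0.44 ± 0.11, SE, limma adjusted p = 0.436), with parental values of 24.1 to 32.5 FPKM and resistant values from 16.2 to 25.0 FPKM, so that the groups overlapped only between the parental library of 2696 and the derivatives of 2883 (vincristine, 25.0) and 2641 (prednisone, 24.3). Ndufb5 had -0.27 ± 0.09 (limma adjusted p = 0.442) and Ndufb2 -0.24 ± 0.09 (0.472). The count of 17 was 8 without parental 2883 or parental 2869 and 11 without prednisone 2641.

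Uqcrfs1 encodes the Rieske iron-sulfur protein, which passes electrons within complex III (chr13:30540308-30545362). Its parental values were 27.8, 24.0, 27.2, 33.5 and 28.4 FPKM in 2883, 2696, 2869, 2641 and 7298. In the 5 derivatives of 2883 it stood at 8.99 (cytarabine), 13.4 (vincristine), 10.8 (etoposide), 14.9 (prednisone) and 20.4 FPKM (methotrexate). These 5 values lay below every parental value, whereas in the remaining lines the derivatives were between 17.1 FPKM (etoposide 2696) and 30.5 FPKM (prednisone 2641). Uqcrfs1 was picked by p and sign in these same values, and the share of all genes without such overlap was not computed. The 5 derivatives of 2883 also share 1 parental library. The 15 other genes within 5 megabases had medians of -0.34 (cytarabine), -0.20 (vincristine), -0.42 (etoposide), -0.36 (prednisone) and -0.080 (methotrexate) in these derivatives. The ratio to parental 2883 was 0.324 (95% exact binomial interval 0.297 to 0.352) for cytarabine, 0.390 for etoposide, 0.482 for vincristine, 0.536 for prednisone and 0.734 for methotrexate. Over all derivatives the difference was -0.42 ± 0.18 (SE, limma adjusted p = 0.486).

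The methotrexate-resistant derivative of 2883 is alone in its group, so there is no test and no replicate check. At a ratio of at least 1.5, 4 of 101 tested members were higher and 13 lower, beside 10.7% of all tested genes higher and 13.6% lower. The members' share is thus below that of all genes on the higher side and close to it on the lower side. Atp5h, a stalk subunit of complex V, went from 24.7 to 8.92 FPKM (ratio 0.362, 95% exact binomial interval 0.326 to 0.400), and the 99 other genes within 5 megabases had a median log2 difference of -0.50 beside -1.37 for Atp5h. Also lower were the complex I subunit Ndufa8, from 4.63 to 1.97 FPKM, the complex III subunit Uqcrb, from 10.7 to 4.66, and the complex IV subunit Cox8a, from 75.4 to 33.1. Higher were Cox6a2 (5.13-fold), mt-Rnr2 (2.93-fold), mt-Rnr1 (2.35-fold) and Cox7a2l (1.60-fold). Intervals on these ratios cover counting error only.

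Complex II is the succinate dehydrogenase that also works in the citric acid cycle. Over all derivatives its 4 members were below 0, with a median of -0.10 beside -0.15 for all nuclear members. The log2 differences were -0.07 ± 0.13 for the flavoprotein Sdha (limma adjusted p = 0.887), -0.09 ± 0.10 for the iron-sulfur protein Sdhb (0.762), -0.10 ± 0.07 for the membrane anchor Sdhc (0.660) and -0.19 ± 0.13 for the membrane anchor Sdhd (0.609). On the exon scale Sdhd (133) stood above Sdha (74.4), Sdhb (45.2) and Sdhc (34.5). Sdha and Sdhb were among the 17 lower members for prednisone, Sdha going from 12.1 to 7.70 FPKM in 2883 and from 11.8 to 11.0 in 2641. Cycs, the mobile electron carrier that also triggers the apoptosome when released, was lower in 10 of 11 derivatives (-0.27 ± 0.12, limma adjusted p = 0.495). It went from 24.9 FPKM in parental 2883 to 13.2 to 20.5 FPKM in its derivatives, and from 30.9 to 30.0 in 7298. Cyc1 had 0.10 ± 0.14 (limma adjusted p = 0.836).

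The mitochondrial mRNAs had no common direction over the derivatives. Their medians over 13 mRNAs were 0.60 in vincristine 2883, where 0 of 13 lay below the parental library, and -0.63 in cytarabine 7298, where 13 of 13 did. Medians were 0.53 in prednisone 2641, 0.41 in etoposide 2696, 0.24 in vincristine 2696, 0.15 in cytarabine 2869, 0.07 in prednisone 2883, 0.04 in etoposide 2883, -0.08 in methotrexate 2883, -0.14 in cytarabine 2883 and -0.18 in vincristine 2869, with 13 of 13 below in the last. In the fits, 0 of 13 reached an unadjusted limma p under 0.05 in any of the 5 comparisons, and the fitted medians were -0.14 (cytarabine), 0.06 (vincristine), 0.18 (etoposide), 0.06 (prednisone) and 0.00 (all derivatives). The cytarabine median was 0.15 without either library of 7298. Nuclear and mitochondrial members parted in the libraries at both ends. In cytarabine 7298 the nuclear median was -0.05 beside -0.63, and in vincristine 2883 it was 0.02 beside 0.60. mt-Nd1 ranged from 1804 FPKM (cytarabine 7298) to 7197 FPKM (vincristine 2883), around parental values of 4599, 2574, 4346, 2688 and 3250 FPKM in 2883, 2696, 2869, 2641 and 7298. mt-Co1 had the smallest SD of the 13 on the log2 scale (0.239), from 6085 to 10380 FPKM, with parental values of 7682, 8163, 9642, 9545 and 6722 FPKM in the same order.

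The likeness of mitochondrial mRNAs over the 16 libraries is given as a description. Among the highest Pearson correlations of log2 values were 0.981 for mt-Nd5 with mt-Nd6, 0.977 for mt-Nd4l with mt-Nd4, 0.944 for mt-Nd3 with mt-Nd4l and 0.933 for mt-Nd4 with mt-Cytb. mt-Co1 was least alike the rest, for example 0.232 with mt-Atp6 and 0.0797 with its neighbour mt-Nd2. Examples of other neighbours were 0.554 for mt-Co1 and mt-Co2, 0.532 for mt-Co2 and mt-Atp8 and 0.518 for mt-Atp6 and mt-Co3. All points share their libraries and their scaling to the library total. Some of these genes share bases, so reads can be shared too. mt-Nd4l and mt-Nd4 overlap over 7 bases (chrM:10167-10173), and mt-Nd5 and mt-Nd6 lie on opposite strands and overlap over 14 bases (chrM:13552-13565). The kit marks strand, but the sources used here do not give the strand setting of the counting. Reads within these 14 bases therefore cannot be told apart. If strand was ignored, reads from the opposite strand would be counted over the whole of mt-Nd6. How far this enters the level and correlations of mt-Nd6 was not tested. The ratio of mt-Nd6 to mt-Nd5 was 0.652 to 0.813 in all libraries. mt-Atp8 and mt-Atp6, subunits of the complex V membrane part, are read from 1 mRNA in different frames and overlap over 43 bases. The overlap is shown because it bounds what the separate values of the 2 genes can mean. Capitals mark the start codon of mt-Atp6 and the stop codon of mt-Atp8.
mt-Atp8 and mt-Atp6 overlap, chrM:7927-7969 (plus strand): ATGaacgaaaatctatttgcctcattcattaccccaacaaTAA
The correlation of mt-Atp8 with mt-Atp6 was 0.725.

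The mitochondrial rRNAs varied more than the mRNAs and were together 0.0722% to 0.284% of reads. These libraries select poly(A) RNA, so the level of an rRNA here is that of its captured part. mt-Rnr2, the large-subunit 16S rRNA, was at 431.1, 239.4, 386.1, 565.8 and 623.2 FPKM in parental 2883, 2696, 2869, 2641 and 7298. It was at 1318 (vincristine), 1264 (methotrexate), 819.6 (prednisone), 681 (etoposide) and 585 FPKM (cytarabine) in the derivatives of 2883. It was higher than in the own parental library in 10 of 11 derivatives, the exception being cytarabine 7298 at 330.1 FPKM, and the difference over all derivatives was 0.54 ± 0.29 (SE, limma adjusted p = 0.543). mt-Rnr1, the small-subunit 12S rRNA, was at 375.6, 359.3, 229.9, 706.8 and 311.9 FPKM in the parental libraries in the same order. It reached 882.4 FPKM in methotrexate 2883 and was at 80.1 FPKM in vincristine 2869, the lowest of the 16, and over all derivatives the estimate was small beside its error (-0.11 ± 0.30, limma adjusted p = 0.917). The ratio of mt-Rnr2 to mt-Rnr1 went from 0.666 (parental 2696) to 9.20 (vincristine 2869), although the 2 genes are neighbours on 1 precursor.

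Uqcr11, a small accessory subunit of complex III (chr10:80402997-80406830), had the largest spread of all members and divided the lines, not the drugs. It had 0 reads in the 9 libraries of lines 2883 and 2869, parental cultures included. In the 7 other libraries it was at 13.7 (parental 2696), 20.0 (parental 2641), 15.6 (parental 7298), 13.5 (cytarabine 7298), 14.0 (vincristine 2696), 12.7 (etoposide 2696) and 17.5 FPKM (prednisone 2641). With a floor of 3 reads per library, the level was at least 198-fold lower in each of the 9 libraries. Neighbouring genes shared the pattern. In the 6 libraries of line 2883, Mex3d, Mbd3, Uqcr11 and Tcf3, which lie side by side between 80380355 and 80433647 on chromosome 10, all had 0 reads. In the 3 libraries of line 2869, Uqcr11 and Tcf3 had 0 reads, while Mbd3 had 31 (parental), 45 (cytarabine) and 18 (vincristine) and Mex3d had 95, 255 and 120. In the other lines Mbd3 had 937 to 2878 and Tcf3 1489 to 3601 reads. Rexo1, the next row beyond Tcf3, had 416 to 1107 reads in the libraries of 2883 and 2869, and Ndufs7, a complex I member before Mex3d on the same chromosome, was present in all 16. Genome copy number was not analysed here. Why these genes had no reads was not tested. The RefSeq sequence before the gene is shown because it lies between Uqcr11 and Tcf3, which both had 0 reads in these 9 libraries. Its ETS core is in capitals.
Uqcr11, chr10:80406831-80406971 (minus strand): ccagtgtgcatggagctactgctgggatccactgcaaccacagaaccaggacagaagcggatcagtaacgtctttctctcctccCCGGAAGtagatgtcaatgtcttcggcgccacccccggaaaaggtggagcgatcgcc
The other 8 complex III members were at 1 FPKM or more in each of these 9 libraries.

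**Figure D4:**
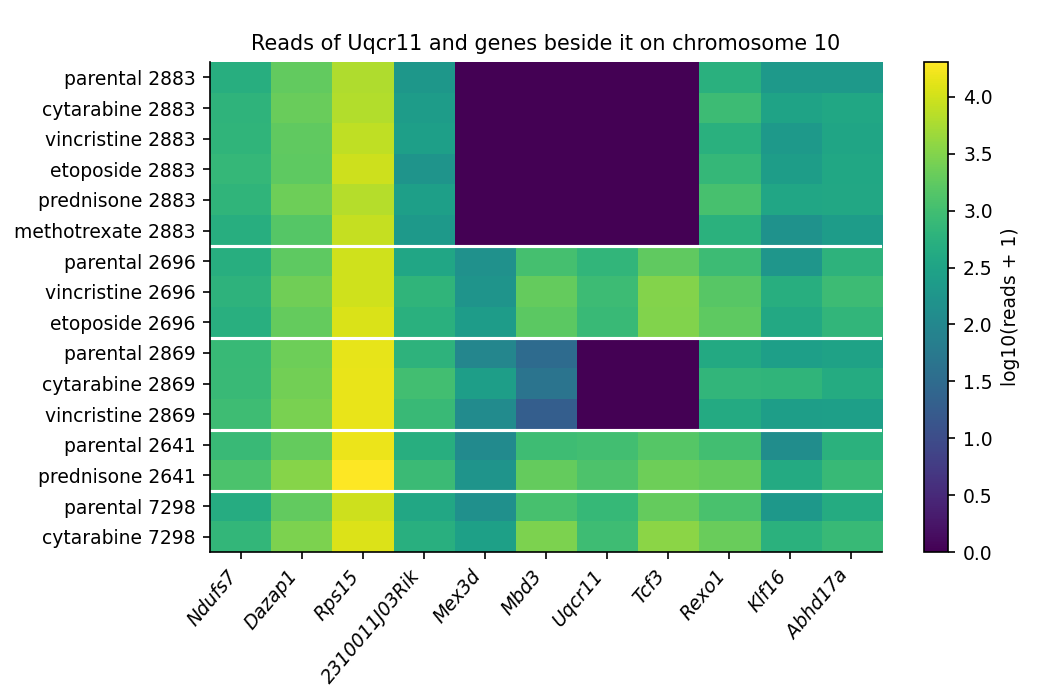
Reads, as log10(reads + 1), of Uqcr11 and 10 genes beside it in their order along chromosome 10 (columns, not to scale) in all 16 libraries (rows, by line). Dark cells are 0 reads, seen for Mex3d, Mbd3, Uqcr11 and Tcf3 in the 6 libraries of line 2883 and for Uqcr11 and Tcf3 in the 3 libraries of line 2869.

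Complex IV subunits with tissue-restricted copies gave the largest differences between a derivative and its parent. Cox6a2, the heart and skeletal muscle copy of Cox6a1 (chr7:128205435-128206387), was at 1.39, 20.0, 18.7, 7.51 and 3.34 FPKM in parental 2883, 2696, 2869, 2641 and 7298. In the derivatives of 2883 it was at 25.6 (cytarabine), 14.5 (etoposide), 9.93 (vincristine), 7.09 (methotrexate) and 0.80 FPKM (prednisone). In those of 2869 it went the opposite way, to 2.11 (cytarabine) and 1.71 FPKM (vincristine). The ratio to the parental library was 18.5 in cytarabine 2883 (16 to 419 reads, 95% exact binomial interval 11.3 to 32.7) and 0.112 in cytarabine 2869 (241 to 34 reads, 0.0761 to 0.161). In 2696 it was at 20.0 FPKM in the parental library, 22.9 with vincristine and 21.2 with etoposide. On the exon scale Cox6a2 was 0.525% to 20.0% of Cox6a1, highest in etoposide 2696. Cox6a1 itself was at 31.3 to 83.7 FPKM, its high value being etoposide 2883 (ratio 1.76, interval 1.67 to 1.86), where the 57 other genes within 5 megabases had a median log2 difference of 0.48 beside 0.81 for Cox6a1.

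Cox6b2, the testis copy of Cox6b1 (chr7:4751792-4753094), was at 1.33 FPKM in parental 2883 and 1.48 in parental 2869 and at most 0.064 in the other parental libraries. In the derivatives of 2883 it was at 13.5 (vincristine), 7.11 (etoposide), 5.41 (cytarabine), 1.39 (prednisone) and 0.060 FPKM (methotrexate, 1 read). The vincristine ratio was 10.1 (21 to 256 reads, 95% exact binomial interval 6.49 to 16.7), the etoposide ratio 5.35 and the cytarabine ratio 4.07. In 2869 it was at 0.729 (cytarabine) and 0.138 FPKM (vincristine, 3 reads). On the exon scale Cox6b2 reached at most 7.83% of Cox6b1, in vincristine 2883, and it had 0 reads in 4 libraries, while Cox6b1 ranged from 9.99 to 15.6 FPKM. Cox4i2, the lung copy of Cox4i1, stayed below the filter and reached at most 5.02% of Cox4i1, in cytarabine 2883 (93 reads), with 0 reads in 7 libraries. The copies in each pair share 0 of their 50-base words, so an exact match of that length cannot belong to both. Cox7a1, Cox7b2, Cox8b, Cox8c and Ndufa4l2 were not analysed here. The RefSeq sequences before the start of the testis copy, its common partner and Cox6a1 are set side by side for comparison. The capitals mark the NRF1 core, which only the Cox6a1 stretch holds in these 3. The full windows of Cox6b1 and Cox6a1 also hold an ETS core that is not within the printed stretches, and the window of Cox6b2 holds none.
Cox6b2, chr7:4753095-4753244 (minus strand): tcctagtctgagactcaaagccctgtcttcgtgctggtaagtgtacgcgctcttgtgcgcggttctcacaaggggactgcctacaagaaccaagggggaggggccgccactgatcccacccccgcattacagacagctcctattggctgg
Cox6b1, chr7:30626152-30626264 (minus strand): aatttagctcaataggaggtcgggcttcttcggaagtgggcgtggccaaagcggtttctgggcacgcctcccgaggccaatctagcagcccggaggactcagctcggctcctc
Cox6a1, chr5:115348982-115349108 (minus strand): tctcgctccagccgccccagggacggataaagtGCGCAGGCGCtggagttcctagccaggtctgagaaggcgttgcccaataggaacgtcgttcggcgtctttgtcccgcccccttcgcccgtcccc
Cox6a2 and Cox4i1 have no matched window.

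**Figure D5:**
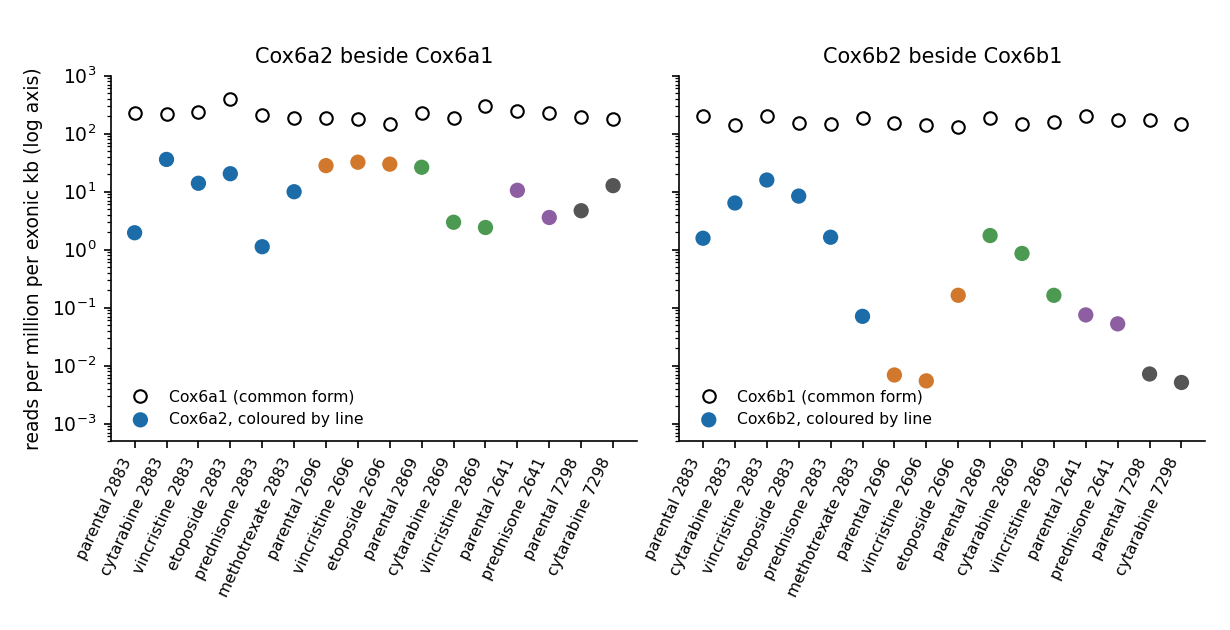
CPM per kilobase of exon (log axis) of Cox6a2 beside Cox6a1 and of Cox6b2 beside Cox6b1 in all 16 libraries, grouped and coloured by line, with the common form as open circles. The common forms span far less of the axis than Cox6a2 and Cox6b2 do, and the lowest Cox6b2 points are libraries with 0 reads, drawn at the constant of 0.1 read in the deposited values.

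Some members stood apart by line together with their neighbours on the chromosome, in stretches picked after these values were seen. The deviation of a line is its mean log2(FPKM + 1) minus the median of the other 4 lines. Ndufa4, a complex IV subunit first assigned to complex I (chr6:11900292-11907497), was at 40.2 FPKM in parental 2869, 33.5 in its cytarabine-resistant and 37.5 in its vincristine-resistant derivative, and at 9.98 to 25.0 FPKM in the other 13 libraries. The complex I subunits Ndufa5 (5.58 to 7.75 FPKM in 2869, 1.78 to 4.23 elsewhere) and Ndufb2 (3.56 to 4.59, and 1.68 to 3.34 elsewhere) lie on the same stretch, the first 45 megabases of chromosome 6. These 3 members deviated by 0.54 to 1.08 in line 2869, and the 96 other tested genes there had a median of 0.58 with 78.1% above 0. On the rest of chromosome 6, 353 genes had a median of 0.05, and Cycs and Ndufa9 deviated by 0.01 to 0.28. In line 7298, Atp5j of complex V (chr16:84827866-84835625) was at 45.2 FPKM in the parental and 34.5 FPKM in the cytarabine-resistant library, and at 15.9 to 29.5 FPKM elsewhere. Atp5o, whose row spans far more than the annotated gene and is uncertain, was at 1.41 and 1.19 FPKM in 7298 and 0.505 to 0.966 FPKM elsewhere. The 48 other genes beyond 80 megabases on chromosome 16 had a median deviation of 0.59 in line 7298 (87.5% above 0), and the 234 genes before it -0.15.

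The wider mitochondrial pathway was read from lists chosen by function, none of whose members passed the adjusted threshold in any of the 5 comparisons. The counts that follow are at an unadjusted limma p under 0.05, where the share of all genes higher and lower was 5.92% and 5.22% for cytarabine, 5.94% and 7.91% for vincristine, 3.59% and 5.3% for etoposide, 4.43% and 4.74% for prednisone, and 3.8% and 5.94% for all derivatives. A count of 1 or 2 in a short list is near these shares. Of 15 tested genes for transcription and replication of mitochondrial DNA, cytarabine gave 1 higher and 1 lower, the mitochondrial RNA polymerase Polrmt (0.31 ± 0.13) and the elongation factor Tefm (-0.32 ± 0.13), both at a limma adjusted p of 0.436. Vincristine gave 1 higher, Tefm, and 0 lower, etoposide 0 and 1 (Polg2, the accessory subunit of the mitochondrial DNA polymerase, -0.57 ± 0.15), prednisone 0 and 1 (Mterf2), and all derivatives 0 and 0. Of 20 genes for mitochondrial RNA processing and stability, cytarabine gave 0 higher and 3 lower, among them Slirp, which guards mitochondrial mRNAs (-0.43 ± 0.13), and the RNA-granule protein Grsf1 (-1.21 ± 0.38), both at a limma adjusted p of 0.404. Grsf1 went from 7.09 to 3.93 FPKM in 2883 and from 5.80 to 4.73 in 2869, and from 6.52 FPKM to 0 reads in 7298. Slirp was also lower in 11 of 11 derivatives (-0.28 ± 0.10, limma adjusted p = 0.445), the only 1 of the 20 at that p over all derivatives. Vincristine gave 1 higher (Elac2), etoposide 2 lower (Fastkd2 and Fastkd5) and prednisone 0. Of 8 regulators of respiratory gene transcription, cytarabine gave 1 higher, the coactivator Pprc1 (0.55 ± 0.18, limma adjusted p = 0.404), and prednisone 2 higher (Hif1a and Pprc1) and 1 lower (Gabpb2), with 0 for the other comparisons.

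Of 19 complex IV assembly factors, cytarabine gave 0 higher and 4 lower, with Higd1a, a hypoxia-induced partner of complex IV (-0.77 ± 0.20), and Cox20 (-0.55 ± 0.16) at a limma adjusted p of 0.404. Vincristine gave 4 higher, among them the copper chaperones Sco2 (0.61 ± 0.20) and Sco1 (0.40 ± 0.14), and 2 lower, Higd1a (-0.73 ± 0.20) and Pet100 (-0.35 ± 0.10), at limma adjusted p between 0.213 and 0.274. Etoposide gave 1 lower (Cox17), prednisone 1 lower (Pet100), and all derivatives 1 higher (Sco2) and 4 lower. Pet100 was lower in 11 of 11 derivatives (-0.29 ± 0.07, limma adjusted p = 0.436). Of 9 assembly factors of complexes II, III and V, cytarabine gave 2 lower (Atpif1, the inhibitor of ATP synthase, and Sdhaf2), etoposide 1 (Tmem70), prednisone 2 (Uqcc2 and Atpif1), vincristine 0 and all derivatives 3, with 0 higher in each. Of 6 complex I assembly factors outside the Nduf names, Tmem126b was lower in cytarabine (-0.30 ± 0.12), vincristine (-0.43 ± 0.13) and etoposide (-0.44 ± 0.15), and in 11 of 11 derivatives overall (-0.34 ± 0.09, limma adjusted p = 0.436). Of 12 citric acid cycle genes, vincristine gave 2 higher (Cs, citrate synthase, and Mdh2), etoposide 1 lower (Sucla2) and the others 0. Of 72 mitochondrial ribosomal protein genes, cytarabine gave 0 higher and 9 lower with a median of -0.12 (59 of 72 below 0), etoposide 0 and 6 with a median of -0.16 (54 of 72), prednisone 0 and 4, vincristine 5 and 1, and all derivatives 0 and 8.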

How the data were processed

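Members and gene lists were chosen with earlier results of these data known. The authors deposited FPKM for 13474 genes. Per the submitters' processing notes, cutadapt, STAR, Partek and mm10 were used. The sources used here do not give versions, annotation, counting method or strand setting. The values show that the deposited FPKM divide by the whole gene span and that 0.1 read per gene was added. Multiplying by span gave CPM, and the steps between low values gave depth and reads. From 70.5% to 75.7% of values between 0.5 and 200 reads lay within 0.05 of a whole read, too few for a count test, so the count model planned for that case was not used. Exon lengths came from GENCODE vM21, for 103 members.

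Tests used limma 3.58.1 (R 4.3.3; lmFit, eBayes with trend) on log2(FPKM + 1), a scale that understates changes of low genes, for 9309 genes at 1 FPKM or more in 2 or more libraries. The models had 5 line terms and either 5 drug terms (6 residual degrees of freedom) or 1 resistance term (10). P-values are two-sided and Benjamini-Hochberg adjusted over all tested genes, with a threshold of 0.05, and ± gives the model's SE. The line pairs each derivative with its parental library because the labels name it for both. As a check, each of the 11 derivatives correlated best with its own parental library (r 0.942 to 0.981, highest other 0.952). Ratios of reads carry 95% exact binomial (Clopper-Pearson) intervals, and intervals and floors (3 reads per library) cover counting error only. Fits were tested on simulated data.

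Named members are the mitochondrial rows, up to 5 per comparison and direction with the smallest p among those under an unadjusted p of 0.05 with the same sign in every derivative, the 6 with the largest SD, the Sdh genes, Cycs and Cyc1, tissue-restricted isoforms, the largest methotrexate ratios and up to 2 per list. Others were named after their values were seen. Alternatives were log2(CPM + 1), leaving the line terms out of the model, dropping the filter, a pseudocount of 0.1, median-of-ratios scaling, quantile normalization, rescaling with the mitochondrial rows left out, and leaving out each library. Leaving out both libraries of line 7298, and a pseudocount of 0.1 with no filter, were added after the data were seen.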

Additional observations from a re-analysis of the deposited data

Results flagged for a closer look

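In the parental group of 5 libraries, 5 of 62 values tested lay apart from the other 4 libraries by Dixon's criterion, where chance alone gives about 1 in 20. Ndufa6 was at 13.96 FPKM in parental 2883, below the others, and this library is the starting point of both the cytarabine and prednisone comparisons in which Ndufa6 was lower. Uqcrb was at 10.69 FPKM in parental 2883, above the other parental libraries, and it is the baseline of the ratios given for Uqcrb in that line. Ndufa8 was at 6.517 FPKM in parental 2641, the highest, and Sdhb at 5.104 FPKM in parental 7298, the lowest. Atp5o was at 1.414 FPKM in parental 7298, the highest.

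Among lines 2883, 2696 and 2869, 13 of 101 tested members had every derivative of 1 line above its parental library and every derivative of another line below. The share of all tested genes with lines opposed in this way was not computed, so the count is not read as a result about the members. These differences between lines were not tested, and the 9 members named in the text are given here. Atp5j was above in 2696 (0.24 to 0.36 on the log2 scale) and below in both 2883 (-0.70 to -0.19) and 2869 (-0.35 to -0.31), its smallest sizes being 0.19 and 0.24. Atp5o was above in 2696 (0.059 to 0.17) and below in both 2883 (-0.19 to -0.0061) and 2869 (-0.12 to -0.042), its smallest sizes being 0.0061 and 0.042. Atp5g1 was above in 2696 (0.24 to 0.72) and below in 2883 (-0.62 to -0.13), with a smallest size of 0.13. Cox6a2 was above in line 2696 (by 0.081 to 0.19) and below in line 2869 (-2.86 to -2.67). Cyc1 was above in 2696 (0.032 to 0.096) and below in 2883 (-0.56 to -0.20). mt-Atp6 was above in 2696 (0.24 to 0.42) and below in 2869 (-0.21 to -0.074), with a smallest size of 0.074. mt-Atp8 was above in 2696 (0.022 to 0.36) and below in 2869 (-0.48 to -0.029). mt-Nd1 was above in 2696 (0.25 to 0.63) and below in 2869 (-0.78 to -0.041), with a smallest size of 0.041. mt-Rnr1 was above in 2883 (0.12 to 1.23) and below in 2869 (-1.51 to -0.21). Lines 2696 and 2869 have 2 derivatives each.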

How the results depend on the processing

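No member passed the adjusted threshold in any of 25 alternatives (0 members in 125 of 125 fits), and the smallest limma adjusted p of a member in any of them was 0.139. Of 822 values of named members under the alternatives, 816 kept their direction. Most of these values belong to members picked for a small p and the same sign in every derivative. Such a choice largely fixes the direction, so the 816 are not a check of it. The 6 that turned were all mt-Rnr1 over all derivatives, at -0.11 as reported, 0.019 without the replicate block, 0.070 with quantile normalization, and 0.037 to 0.085 without parental 2641, parental 2869, vincristine 2869 or prednisone 2641. With 1 library left out at a time it ran from -0.37 to 0.085. Depth limits low members such as Cox6b2 and Cox4i2, whose ratios rest on few reads.

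Counts at an unadjusted p moved under many of the alternatives. Without the replicate block, lower members numbered 10 (cytarabine, 17 as reported), 11 (etoposide, 5), 8 (prednisone, 17) and 9 (all derivatives, 17), higher members numbered 1 for vincristine (5) and 1 for all derivatives (0), and the etoposide nuclear median was -0.19 (-0.14). The block left the other counts within 1.5 times. Lower members for vincristine (2) numbered 4 with no filter, with log2(CPM + 1), without both libraries of line 7298 and with a pseudocount of 0.1 and no filter. Those for etoposide numbered 9 with no filter, 8 with log2(CPM + 1), 3 with median-of-ratios scaling, 2 with quantile normalization and 8 with a pseudocount of 0.1 and no filter. Higher members, 0 as reported, numbered 1 for etoposide with median-of-ratios scaling and without both libraries of line 7298, 2 for prednisone with quantile normalization, and 2 for all derivatives with quantile normalization and without both libraries of line 7298. Lower members for cytarabine numbered 29 without both libraries of line 7298. The etoposide nuclear median was -0.16 with a pseudocount of 0.1, with log2(CPM + 1) and with a pseudocount of 0.1 and no filter, -0.10 with median-of-ratios scaling, -0.094 with quantile normalization and -0.17 without both libraries of line 7298. The cause of these moves was not tested.

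With 1 library left out at a time, cytarabine had 5 to 29 lower and 0 to 1 higher members. Vincristine had 1 to 6 on each side, etoposide 0 to 8 lower and 0 to 2 higher, and prednisone 0 to 21 lower and 0 to 1 higher. All derivatives together had 8 to 21 lower and 0 to 2 higher. Etoposide nuclear medians ran from -0.18 to -0.11. Over all alternatives the nuclear median ran from -0.29 to -0.16 for cytarabine, -0.08 to 0.03 for vincristine, -0.35 to -0.10 for prednisone and -0.18 to -0.11 for all derivatives, and the mitochondrial mRNA median from -0.35 to 0.15, -0.14 to 0.35, -0.05 to 0.53 and -0.06 to 0.19 in the same order, and from -0.05 to 0.47 for etoposide.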
